A study of Mus musculus with 4 samples.

Results

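The genes described here are markers of macrophages and of leukocytes in general, measured in whole tibialis anterior muscle of mice heterozygous or homozygous for a floxed allele of Nf1. A written list of 38 gene names, chosen with earlier results of these data known, was used. Of them, 36 had a value above 0 in at least 1 library, out of 18959 names above 0 in the whole data set. Adgre1 and Emr1, a current and an older name of the gene for the F4/80 antigen, were listed at 0 in every library. The list was grouped by role: shared leukocyte genes, macrophage lineage and recruitment genes, Fc receptors with their signalling adaptors, the chains of complement C1q, MHC class II antigen presentation, receptors of resident macrophages, and lysosomal or effector genes.

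RNA of the tibialis anterior, a mostly fast-twitch muscle at the front of the shin, was sequenced at postnatal day 21 in C57BL/6 mice. Nf1 encodes neurofibromin, which restrains Ras signalling. The control group, called Het, was labelled Nf1flox/+/Myf5+, with 1 floxed Nf1 allele. The deleted group, called Nf1-KO, was labelled Nf1flox/flox/Myf5+, with both alleles floxed, so both groups carried Myf5+ and at least 1 floxed allele. Myf5 is a transcription factor gene of muscle precursors, and the labels do not spell out the allele or name a recombinase. Each group had 2 libraries, with no statement that these came from separate animals, so the p-values measure only the spread between these libraries, which may be technical.

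Macrophages take up debris, display peptides on MHC class II and release complement and growth factors. In skeletal muscle they lie between the fibres, arise from fetal precursors and blood monocytes, and multiply or arrive under the receptors Csf1r and Ccr2. They make up a small part of the tissue, so their transcripts in whole muscle are few beside those of the fibres. In such bulk samples, more cells of a type and more RNA per cell cannot be told apart.

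The promoters of 4 genes are shown because the results turn on the antigen presentation genes, where class II chains rose and the class I genes H2-K1, H2-D1 and B2m fell, and on the C1q chains. Each is the reference sequence from 250 bases before to 50 bases after the transcription start, 5′ to 3′ on the gene's strand, from RefSeq on GRCm38.p6. Capitals in the first 3 mark a perfect match to the Y box, CTGATTGG or its reverse complement, the CCAAT-containing element bound by the factor NF-Y in MHC promoters. Capitals in the last mark a match to GAGGAAGT on the other strand, a core recognised by PU.1, the product of the member Spi1.
H2-Aa, chr17:34287774-34288073, minus strand: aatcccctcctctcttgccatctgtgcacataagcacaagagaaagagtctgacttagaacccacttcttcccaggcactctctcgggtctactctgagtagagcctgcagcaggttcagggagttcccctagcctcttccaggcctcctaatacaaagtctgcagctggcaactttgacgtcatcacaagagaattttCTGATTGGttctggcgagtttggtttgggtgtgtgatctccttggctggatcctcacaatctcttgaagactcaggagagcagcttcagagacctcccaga
H2-Eb1, chr17:34305617-34305916, plus strand: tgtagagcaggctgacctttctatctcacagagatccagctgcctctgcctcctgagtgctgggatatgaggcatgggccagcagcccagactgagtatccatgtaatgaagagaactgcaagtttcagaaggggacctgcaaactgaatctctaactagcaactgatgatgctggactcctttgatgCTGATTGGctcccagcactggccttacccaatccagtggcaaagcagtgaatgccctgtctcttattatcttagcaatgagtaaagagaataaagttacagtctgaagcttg
H2-K1, chr17:34000284-34000583, minus strand: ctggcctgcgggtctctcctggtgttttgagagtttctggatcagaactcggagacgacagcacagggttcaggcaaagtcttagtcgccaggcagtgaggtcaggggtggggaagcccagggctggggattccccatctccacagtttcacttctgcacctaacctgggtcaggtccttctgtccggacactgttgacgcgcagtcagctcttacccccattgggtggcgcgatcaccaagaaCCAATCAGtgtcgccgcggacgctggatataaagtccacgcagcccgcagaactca
C1qc, chr4:136892865-136893164, minus strand: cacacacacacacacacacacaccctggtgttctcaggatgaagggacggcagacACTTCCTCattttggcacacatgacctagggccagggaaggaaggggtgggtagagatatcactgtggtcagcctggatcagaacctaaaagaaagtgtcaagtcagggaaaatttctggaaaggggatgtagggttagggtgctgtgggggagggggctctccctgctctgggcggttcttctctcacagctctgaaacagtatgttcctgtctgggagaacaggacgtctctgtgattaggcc

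The first base of the match to the Y box letters lay 51 bases before the start in H2-Aa and 62 in H2-Eb1. In H2-K1 the match was to the reverse complement and lay 6 bases before the start. RefSeq gave a second H2-K1 promoter, chr17:34000298-34000597, in which the same match lay at -8 on this count, after the start. The PU.1 core lay 195 bases before the start in C1qc. For each motif both strands were searched, and each of these windows held 1 match. The Y box letters stood in 4.1% of 32851 promoters of the same length. They stood in 6 of 10 promoters of 9 genes of the class I pathway list. These 6 belonged to H2-D1, H2-K1, H2-T23, Psmb9 and Tap1, with the same match counted in both H2-K1 promoters. Of the class II genes, H2-Aa and H2-Eb1 had a promoter in the table, and both held it. GAGGAAGT stood in 3.2% of all promoters, and among 32 promoters of 26 matched members in those of C1qc and Cd53. A match describes letters only.

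The values are RPKM, reads scaled to gene length and to the size of the library, and no read total per library was among the files used, so the depth is unknown. The RPKM of all names summed to between 532315 and 547144 per library. Fold changes are differences of log2(scaled RPKM + 1), where the scaling factor of each library lay between 0.968 and 1.04. Adding 1 draws fold changes toward 0, most strongly for genes of low RPKM but also above 1 RPKM. The member Lgals3, for example, had a log2 fold change of 1.37 here and 2.18 in the authors' deposited table of the same comparison. The member Lyz2 had 1.51 and 1.61, so the order of these 2 differed. Nf1 itself measured 1.09 and 1.01 RPKM in Het and 0.89 and 0.85 in Nf1-KO, and its log2 fold change was -0.18 ± 0.057 (SE, limma adjusted p = 0.041). Without Het replicate 1, Het replicate 2, Nf1-KO replicate 1 or Nf1-KO replicate 2 the adjusted p was 0.12, 0.057, 0.11 and 0.18, and over all alternatives the call held in 6 of 14. The summed RPKM of 8 markers of the muscle fibre was lower, 43100 and 43400 in Nf1-KO against 56600 and 56700 in Het. Of the 8, 7 were called lower, against 25.4% of all genes tested. The largest falls were those of the calcium buffer Pvalb, the Z-disc protein Actn3 and the fast myosin Myh4, with log2 fold changes of -1.72, -1.35 and -1.08, and the gene called higher was the myosin Myh1 at 0.52.

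Macrophage and leukocyte genes, a list chosen with earlier results of these data known, were mostly higher in Nf1-KO muscle. Their RPKM summed to 61.5 and 59.5 in the Het libraries and to 123 and 120 in the Nf1-KO libraries, a ratio of 2.01. Of 36 members above 0, 30 had both Nf1-KO libraries above both Het libraries, against 30.5% of all names, and 2 had both below, against 29%. These 2 were Aif1 and Folr2, and Cx3cr1, Ly86, Mrc1 and Cd163 overlapped between the groups. On the values as deposited, without scaling, the counts were also 30 and 2, against 37.5% and 20.4% of all names. A filter of 0.5 RPKM in at least 2 libraries let 24 members through, and 21 of these were higher at an adjusted p under 0.05 while 0 were lower. Over all 10690 genes tested, 50.3% were called, 24.9% higher and 25.4% lower. Spi1 and Ccr2 passed the filter only through the Nf1-KO libraries and had to differ; of the 19 members that reached 0.5 RPKM in both Het libraries, 17 were higher.

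With no filter, 21 of all 36 members were higher and 0 lower, against 11.7% and 12.2% of all names. Cd53 and Fcgr2b were called there, while Coro1a and Cd68 were not. The median log2 fold change over the 36 was 0.32, and that over all names was 0. Leaving out 1 library at a time left between 18 and 20 members called; in these fits 1 group has a single library, which is assumed to vary like the other group's.

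**Figure D1:**
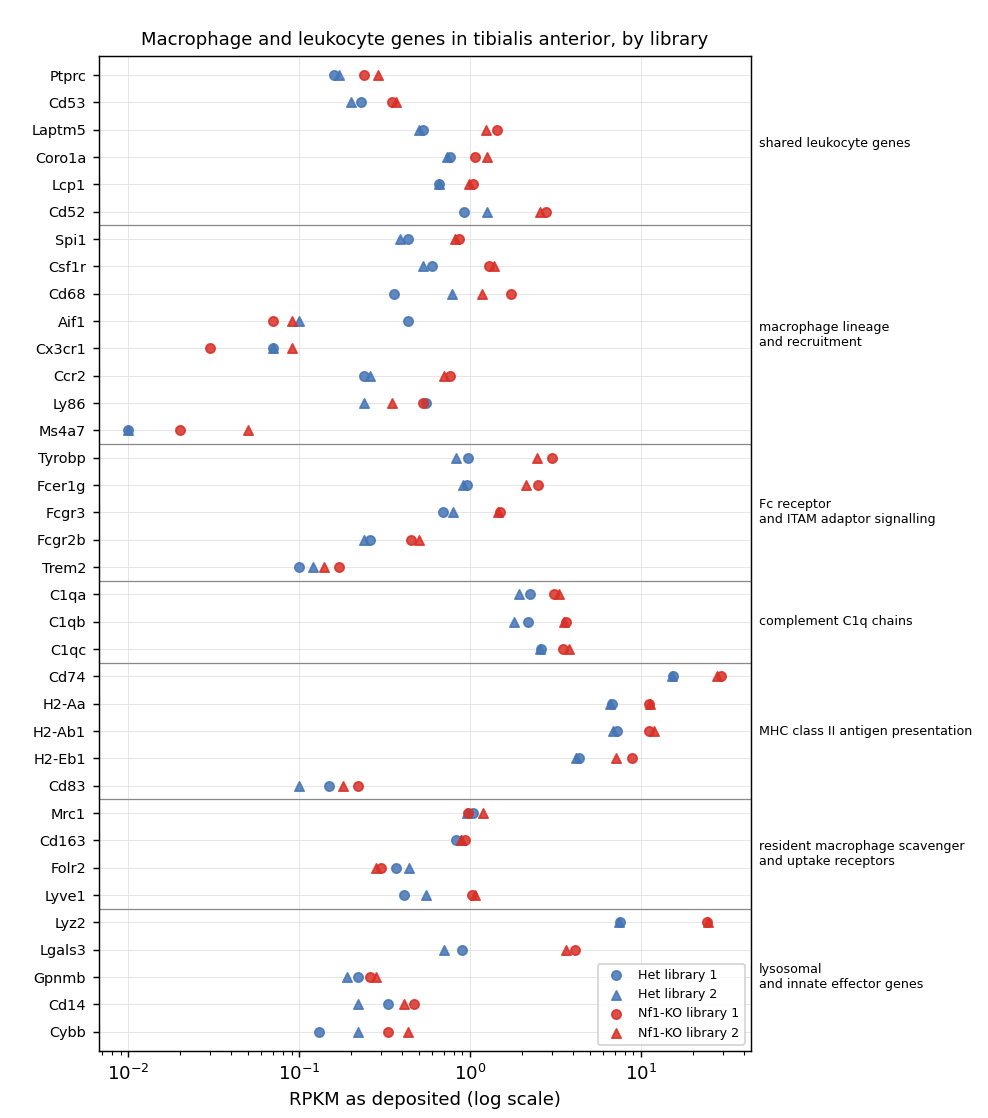
RPKM of each of the 36 members above 0 in each of the 4 libraries, on a log axis and ordered by role, with 1 point per library. The Nf1-KO points lie above both Het points in 30 of 36 members, and Lyz2 and Lgals3 show a wide gap while Mrc1 and Cd163 overlap.

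Several members are shared with other myeloid cells, and markers of these moved in the same libraries. Osteoclasts, the bone-resorbing cells of the macrophage lineage, use Csf1r, Spi1, Tyrobp and Cd68. Their 10 marker names summed to 1.6 and 1.56 RPKM in Het and 20.5 and 20.1 in Nf1-KO. Both Nf1-KO libraries were higher in 6 of 8 names above 0, against 30.5% of all names. Ctsk, the collagen-cleaving cathepsin, had 1.02 and 0.91 RPKM in Het and 9.54 and 10.04 in Nf1-KO. Acp5, the tartrate-resistant phosphatase, had 0.22 and 0.20 against 6.51 and 5.33, and Mmp9, a secreted gelatinase, 0.13 and 0.06 against 3.41 and 3.80. Atp6v0d2 had 0.02 and 0.01 against 0.45 and 0.45, Calcr 0.06 and 0.15 against 0.04 and 0.05, and Dcstamp with its older name Tm7sf4 was listed at 0.

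Genes of bone-forming cells and bone matrix, a list made after their values were seen, summed to 4.95 and 5.11 RPKM in Het and 16 and 16.8 in Nf1-KO. Most of the Het sum was Alpl, at 4.68 and 4.68 against 6 and 6.01. Ibsp, bone sialoprotein, was at 0.01 and 0.02 against 8.65 and 9.07. Phex was lower in both Nf1-KO libraries, at 0.14 and 0.14 against 0.05 and 0.08, and Mepe was listed at 0. The remaining names of this list were higher in both Nf1-KO libraries. Neutrophil markers, 11 names, summed to 0.28 and 0.08 against 2.12 and 2.77, and Ly6g was listed at 0. Both Nf1-KO libraries were higher in 7 of the 10 above 0, against 30.5% of all names. S100a8 and S100a9 encode the abundant calcium-binding pair of neutrophils. S100a8 had 0.21 and 0 RPKM in Het and 0.92 and 1.25 in Nf1-KO, and S100a9 had 0 and 0.03 against 0.65 and 0.82. Markers of fibroblasts, the matrix-making cells between fibres, also moved. Their sum was 107 and 104 RPKM in Het and 149 and 150 in Nf1-KO. Of 8 tested, 5 rose and 1 fell, against 24.9% and 25.4% of all genes tested. Col1a1, a chain of the main fibrillar collagen, had 10.70 and 10.69 against 35.85 and 36.07, a log2 fold change of 1.57. Ly6a, a marker of stem-like and vessel cells, rose with 0.53, and Col15a1, a basement membrane collagen, fell with -0.67. The bone, osteoclast, neutrophil and fibroblast lists were thus higher in the same 2 libraries as the members described below, and their part in the results was not tested.

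**Figure D2:**
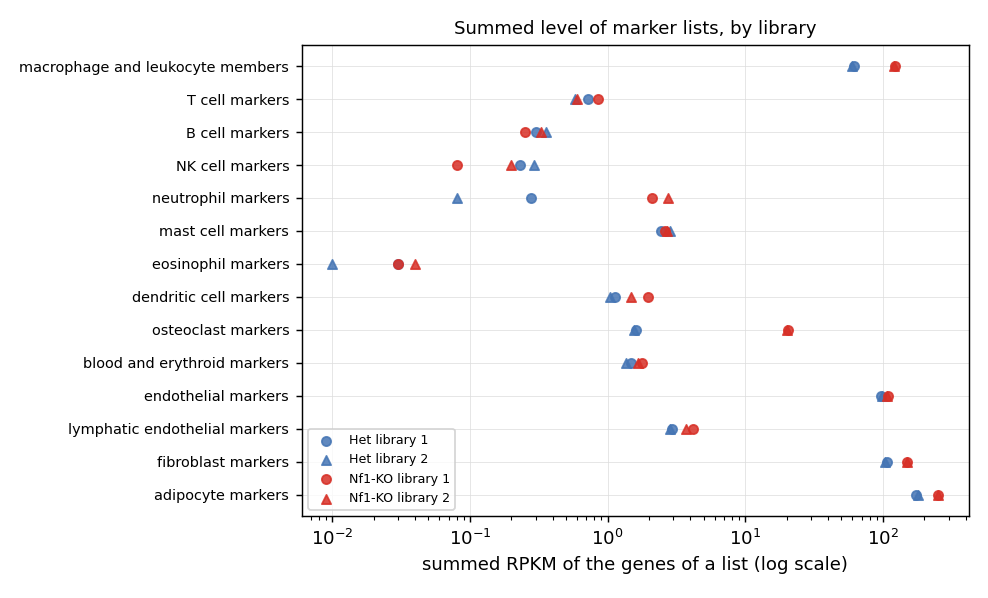
Summed RPKM of the members and of marker lists of other cell types in each library, on a log axis, with 1 point per library. The osteoclast and neutrophil lists are higher in both Nf1-KO libraries, while the T, B and NK cell lists stay under 1 RPKM in all 4.

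Markers of lymphocytes were near 0 in both groups. The 10 T cell names summed to 0.72 and 0.58 RPKM in Het and 0.85 and 0.6 in Nf1-KO, with Cd3e, a chain of the T cell receptor complex, between 0.01 and 0.1. The 8 B cell names summed to between 0.25 and 0.36 and the 7 NK cell names to between 0.08 and 0.29, and 0 genes of these 3 lists reached the filter. Mast cell markers summed to 2.46 and 2.84 RPKM in Het and 2.61 and 2.72 in Nf1-KO, with Mcpt1 listed at 0. Their growth factor receptor Kit fell from 0.79 and 0.80 to 0.27 and 0.29 (log2 fold change -0.52, limma adjusted p = 0.00052), while both Nf1-KO libraries were higher for the tryptase Tpsb2, which was not called. Siglecf, Siglec5 and Epx of eosinophils were listed at 0. Dendritic cell markers, which overlap in function with the class II genes, summed to 1.13 and 1.04 against 1.98 and 1.48. Of these 8, 5 had both Nf1-KO libraries higher and 1 both lower, against 30.5% and 29% of all names, and 0 reached the filter. Cd209a had 0.1 and 0.07 against 0.46 and 0.31. Zbtb46, the most abundant of them, had 0.49 and 0.44 against 0.58 and 0.42 and overlapped. The part of dendritic cells in the class II results was not tested. The globin genes Hba-a2, Hbb-b1, Hbb-b2, Hbb-bs and Hbb-bt were listed at 0 in every library, so the files give no measure of blood content, and the sum of the blood list is nearly that of Alas2, a heme synthesis enzyme, at 1.40 and 1.37 against 1.77 and 1.62.

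Endothelial markers summed, without scaling, to 97 and 97.9 RPKM in Het and 109 and 107 in Nf1-KO. On scaled values 4 of 8 had both Nf1-KO libraries higher and 3 had both lower, against 30.5% and 29% of all names. The median log2 fold change of the 8 was 0.04, against 0 over all genes tested. Egfl7, a secreted vessel protein, rose with a log2 fold change of 0.34 (limma adjusted p = 0.00058), and Kdr, a receptor for vascular growth factor, fell with -0.25 (limma adjusted p = 0.004). Tek, the angiopoietin receptor, rose with 0.15 (limma adjusted p = 0.032) and lost the call without Het replicate 1, Het replicate 2 or Nf1-KO replicate 2, at 0.13, 0.082 and 0.14.

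All 6 genes found in leukocytes of many kinds had both Nf1-KO libraries above both Het libraries, and all 4 that passed the filter rose. Their summed RPKM went from a mean of 3.39 in Het to 6.8 in Nf1-KO, a ratio of 2.01. Cd52, a small surface glycoprotein of lymphocytes and monocytes, had 0.92 and 1.26 RPKM in Het and 2.79 and 2.56 in Nf1-KO, a log2 fold change of 0.76 (limma adjusted p = 0.00079). Laptm5, a lysosomal membrane protein of blood cells, had 0.53 and 0.50 against 1.43 and 1.24, a log2 fold change of 0.58 (limma adjusted p = 0.00059).

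Coro1a and Lcp1, which bind actin in leukocytes, rose with the smallest fold changes of the 4. Lcp1 had 0.66 and 0.66 RPKM against 1.04 and 0.98, a log2 fold change of 0.23 (limma adjusted p = 0.015), and its adjusted p was 0.072 without Nf1-KO replicate 1. Coro1a had 0.76 and 0.73 against 1.06 and 1.26, a log2 fold change of 0.26 (limma adjusted p = 0.018), and lost the call without Het replicate 1, Het replicate 2 or Nf1-KO replicate 2, at 0.056, 0.06 and 0.094. Ptprc, which encodes the leukocyte common antigen, stayed under the filter at 0.16 and 0.17 against 0.24 and 0.29, and so did the tetraspanin Cd53 at 0.23 and 0.20 against 0.35 and 0.37. Exons of Lcp1 overlap those of Gm15628 by 311 bases and of Gm15629 by 219, those of Cd52 overlap Crybg2 by 145 and those of Coro1a overlap Bola2 by 26, on opposite strands in GENCODE M21, and the sources used here do not give the strand setting of the counting.

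Of the 8 lineage and recruitment genes above 0, 5 had both Nf1-KO libraries higher, and their summed RPKM went from 2.54 to 4.96. Csf1r, the receptor for the macrophage growth factors Csf1 and Il34, had 0.60 and 0.53 RPKM in Het and 1.29 and 1.37 in Nf1-KO, and rose with a log2 fold change of 0.53 (limma adjusted p = 6e-04). Spi1, the transcription factor PU.1 of the myeloid lineage, had 0.43 and 0.39 against 0.86 and 0.81. Ccr2, the chemokine receptor by which monocytes enter tissue, had 0.24 and 0.26 against 0.76 and 0.70. Spi1 and Ccr2 are the members that were tested only because of their Nf1-KO level. Exons of Csf1r overlap those of Hmgxb3 on the opposite strand by 873 bases.

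Cd68, a lysosomal glycoprotein used as a macrophage stain, varied widely between libraries of a group. It had 0.36 and 0.78 RPKM in Het and 1.72 and 1.17 in Nf1-KO, a log2 fold change of 0.6 ± 0.16 (SE, limma adjusted p = 0.02), and its adjusted p was 0.086 without Het replicate 1. Ly86, which pairs with a Toll-like receptor relative, had 0.55 and 0.24 against 0.53 and 0.35, and the 95% interval of its log2 fold change ran from -0.27 to 0.32.

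Other lineage markers were close to the floor. Aif1, which encodes the stain Iba1, had 0.43 and 0.10 RPKM in Het and 0.07 and 0.09 in Nf1-KO. Cx3cr1, the fractalkine receptor, stayed between 0.03 and 0.09, and Ms4a7 between 0.01 and 0.05. These genes were not tested.

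The growth factors for Csf1r did not pass the test, while several chemokine genes rose. Csf1 had 1.21 and 1.39 RPKM in Het and 1.45 and 1.53 in Nf1-KO, and the 95% interval of its log2 fold change ran from -0.09 to 0.21. Il34 had 1.71 and 1.87 against 1.96 and 1.58, with an interval from -0.27 to 0.12. Both were named because they bind Csf1r.

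Of 27 growth factor and chemokine names, 4 were listed at 0 (Csf3, Ccl3, Ccl4 and Cxcl2) and 12 passed the filter. Of these 12, 7 were higher and 1 lower, against 24.9% and 25.4% of all genes tested. Of the 7, Ccl2, Ccl9 and Spp1 passed only through their Nf1-KO level and had to differ, and of the 9 that reached 0.5 RPKM in both Het libraries 4 were higher. Without either Nf1-KO library 9 were tested, and the number called went from 8 to 5. Ccl2, the ligand of Ccr2, had 0.07 and 0.17 RPKM in Het and 0.98 and 0.70 in Nf1-KO. Ccl6, a chemokine of myeloid cells, had 0.50 and 0.74 against 2.71 and 3.04, a log2 fold change of 1.21 (limma adjusted p = 1e-04). Spp1, or osteopontin, which macrophages, osteoclasts and bone-forming cells secrete, had 0.41 and 0.31 against 14.19 and 14.05. The gene that fell was Cxcl9, an interferon-induced chemokine named after its values were seen, at 0.72 and 0.82 against 0.42 and 0.32.

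All 5 Fc receptor and adaptor genes had both Nf1-KO libraries higher, and the 3 that passed the filter rose. Their summed RPKM went from 2.93 to 7.13, a ratio of 2.43. Tyrobp, the adaptor DAP12 that carries the signal of receptors such as Trem2, had 0.97 and 0.82 RPKM in Het and 3.01 and 2.45 in Nf1-KO, a log2 fold change of 0.92 ± 0.087 (SE, limma adjusted p = 0.00032). Fcer1g, the common gamma chain of Fc receptors, had 0.96 and 0.91 against 2.49 and 2.11, a log2 fold change of 0.71 (limma adjusted p = 4e-04). Fcgr3, an activating receptor for IgG that needs this gamma chain, had 0.69 and 0.79 against 1.49 and 1.45, a log2 fold change of 0.46 (limma adjusted p = 0.0012).

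The adaptors stood above the receptors in level. Fcgr2b, the inhibitory IgG receptor, had 0.26 and 0.24 RPKM in Het and 0.45 and 0.50 in Nf1-KO, with an overlap of 155 bases with Gm38204 on the opposite strand. Trem2, a lipid receptor of macrophages and osteoclasts, had 0.10 and 0.12 against 0.17 and 0.14. Neither reached the filter. Tyrobp and Fcer1g also serve neutrophils and NK cells, whose markers are given above.

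The 3 chains of C1q, which binds immune complexes and dying cells and is made mostly by macrophages, all rose. Their summed RPKM went from 6.65 to 10.5, a ratio of 1.57. C1qa had 2.25 and 1.94 RPKM in Het and 3.11 and 3.32 in Nf1-KO, a log2 fold change of 0.38 ± 0.067 (SE, limma adjusted p = 0.0044). C1qb had 2.17 and 1.80 against 3.63 and 3.54, a log2 fold change of 0.55 ± 0.071 (SE, limma adjusted p = 0.0011). The chains assemble together, and their genes lie side by side. C1qc had 2.59 and 2.56 against 3.51 and 3.80, a log2 fold change of 0.31 ± 0.054 (SE, limma adjusted p = 0.0041). The ratio of C1qb to C1qc was 0.838 and 0.703 in Het and 1.03 and 0.932 in Nf1-KO, and that of C1qa to C1qc 0.869 and 0.758 against 0.886 and 0.874.

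Complement genes outside C1q were given by a separate list of 20. Both Nf1-KO libraries were higher in 15 of them, against 30.5% of all names. Of 12 tested, 7 rose and 1 fell, against 24.9% and 25.4% of all genes tested. Of the 7, Cfp and Itgb2 passed the filter only through their Nf1-KO level and had to differ, and of the 10 that reached it in both Het libraries 5 rose. Without Nf1-KO replicate 1, 10 were tested and the number called went from 8 to 5. Cfd, or adipsin, a protease that adipocytes secrete, had 5.87 and 6.80 RPKM in Het and 17.34 and 17.71 in Nf1-KO, a log2 fold change of 1.25 (limma adjusted p = 2.2e-05). Adipocyte markers split: both Nf1-KO libraries were higher for Fabp4, Cidec and Retn and lower for Adipoq, Plin1 and Lep. The lipid carrier Fabp4 rose from 170.60 and 176.29 to 249.39 and 246.76, and the lipid droplet protein Cidec from 0.52 and 0.51 to 0.95 and 1.03, while the hormone gene Adipoq had 1.11 and 1.31 against 0.95 and 1.05 and was not called. Cfp, or properdin, made by myeloid cells, had 0.45 and 0.36 against 1.26 and 1.58. Itgb2, the leukocyte integrin chain of complement receptors, had 0.25 and 0.25 against 0.78 and 0.85. Cd55, a membrane inhibitor named after its values were seen, fell from 8.74 and 8.89 to 7.78 and 7.59.

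The genes of MHC class II, which present peptides from engulfed material, included Cd74, the most abundant member in every library, and all 4 that passed the filter rose. Their summed RPKM went from 33.4 to 59.4, a ratio of 1.78. Cd74, the invariant chain that guards the peptide groove, had 15.44 and 15.23 RPKM in Het and 29.41 and 27.84 in Nf1-KO, a log2 fold change of 0.77 ± 0.036 (SE, limma adjusted p = 1.6e-05). H2-Aa, an alpha chain whose promoter is shown above, had 6.72 and 6.54 against 11.04 and 11.19, a log2 fold change of 0.58 ± 0.037 (SE, limma adjusted p = 5.8e-05). Its partner H2-Ab1 had 7.20 and 6.82 against 11.11 and 11.83, a log2 fold change of 0.55 ± 0.046 (SE, limma adjusted p = 0.00018). The ratio of H2-Aa to H2-Ab1, whose products pair in 1 heterodimer, lay between 0.933 and 0.994 in all 4 libraries.

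H2-Eb1, the gene of another class II beta chain, had 4.35 and 4.15 RPKM in Het and 8.82 and 7.09 in Nf1-KO, a log2 fold change of 0.68 ± 0.091 (SE, limma adjusted p = 0.0013). Cd83, a surface protein of antigen-presenting cells that stabilises class II, had 0.15 and 0.10 against 0.22 and 0.18 and was not tested. Exons of Cd74 contain 12 bases of the microRNA gene Mir5107 on the same strand.

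Genes that load or regulate class II were a separate list of 12, of which 9 were tested. Of these, 4 rose (Ctss, H2-DMa, H2-DMb1 and Nfya) and 1 fell (Rfxap), while 24.9% and 25.4% of all genes tested did so. The median log2 fold change of the 9 was 0.07, against 0 over all genes tested. Nfya and Rfxap were named after their values were seen. Without Het replicate 2, Nf1-KO replicate 1 or Nf1-KO replicate 2 the number called went from 5 to 3, since Nfya and Rfxap lost the call in each, Rfxap also on unscaled values (adjusted p = 0.14). Ctss, the protease that trims the invariant chain, had 0.99 and 1.05 RPKM in Het and 3.22 and 2.89 in Nf1-KO, a log2 fold change of 0.94 (limma adjusted p = 7e-05). H2-DMa and H2-DMb1 encode the peptide exchanger, and their log2 fold changes were 0.42 (limma adjusted p = 0.0015) and 0.35 (limma adjusted p = 0.01), the latter at 0.052 with no filter. Ciita, the coactivator on which class II transcription depends, had 0.11 and 0.15 against 0.11 and 0.12 and was not tested.

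Several genes of MHC class I, which nearly all cells carry and which presents peptides from inside the cell, fell. Of 9 class I pathway genes tested, 0 rose and 5 fell, against 24.9% and 25.4% of all genes tested. The median log2 fold change of the 9 was -0.32, against 0 over all genes tested. The summed RPKM of the class I list went from 122 to 81.7. H2-K1, a heavy chain, had 28.96 and 27.44 RPKM in Het and 14.96 and 15.64 in Nf1-KO, a log2 fold change of -0.93 (limma adjusted p = 9.8e-06). B2m, the light chain, had 59.44 and 60.45 against 34.43 and 38.43, a log2 fold change of -0.8 (limma adjusted p = 5.2e-05). H2-D1, another heavy chain, had 10.84 and 10.09 against 7.13 and 6.96, a log2 fold change of -0.59 (limma adjusted p = 0.00012).

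The other 2 that fell, named after their values were seen, were the peptide transporter Tap1 and the immunoproteasome subunit Psmb9, with log2 fold changes of -0.33 and -0.31. H2-T23, Tap2, Tapbp and Psmb8 were not called, and Psmb8 was called lower without Nf1-KO replicate 2 (adjusted p = 0.0011) and with the replicate block (adjusted p = 0.025). H2-Q4 was listed at 0. Nlrc5, the class I coactivator, had 0.27 and 0.23 RPKM against 0.05 and 0.06 and was under the filter. The ratio of Cd74 to B2m was 0.26 and 0.252 in Het and 0.854 and 0.724 in Nf1-KO, and that of H2-Aa to H2-K1 was 0.232 and 0.238 against 0.738 and 0.715. In each ratio both Nf1-KO libraries lay above both Het libraries.

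**Figure D3:**
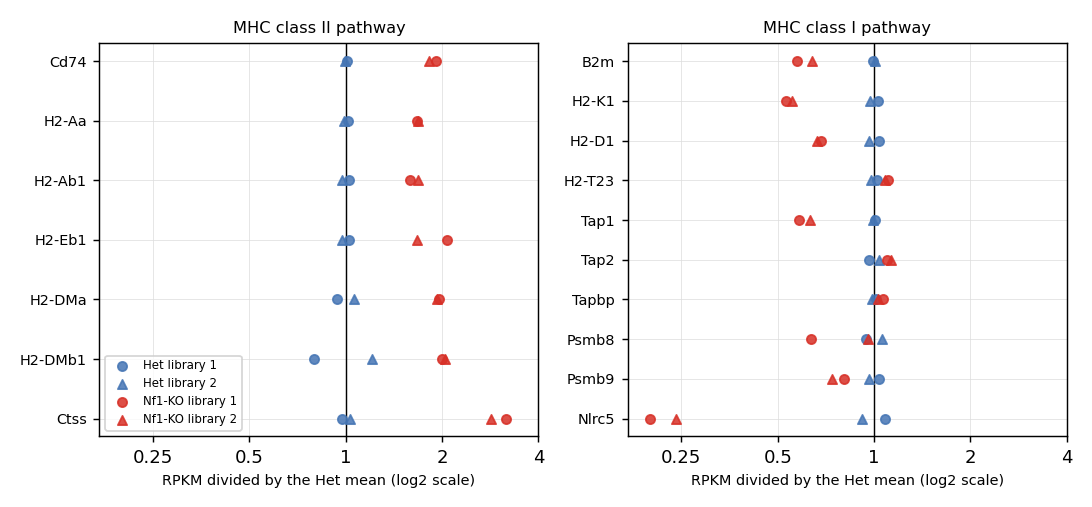
RPKM of each gene divided by its Het mean, on a log2 axis, for the class II pathway in the left panel and the class I pathway in the right, with 1 point per library. Cd74, H2-Aa, H2-Ab1 and H2-Eb1 are higher in both Nf1-KO libraries, and B2m, H2-K1 and H2-D1 are lower in both.

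Of the receptors of resident macrophages, 1 of 3 tested rose, and their summed RPKM went from 2.74 to 3.32, a ratio of 1.21. Mrc1, the mannose receptor CD206, had 1.04 and 0.96 RPKM in Het and 0.97 and 1.19 in Nf1-KO, and the 95% interval of its log2 fold change ran from -0.16 to 0.18. Cd163, the haemoglobin scavenger receptor, had 0.82 and 0.88 against 0.93 and 0.88, with an interval from -0.14 to 0.14. Both intervals lie under the log2 fold change of 0.53 measured for Csf1r, though the difference between genes was not tested.

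Folr2, a folate receptor of resident macrophages, was among the 2 members below Het in both Nf1-KO libraries, at 0.37 and 0.44 RPKM in Het and 0.30 and 0.28 in Nf1-KO, and it was not tested; its exons overlap Gm10602 on the opposite strand by 474 bases. Lyve1, a hyaluronan receptor of some resident macrophages and of lymphatic vessels, had 0.41 and 0.55 against 1.03 and 1.06, a log2 fold change of 0.43 (limma adjusted p = 0.0028). Lymphatic markers summed to 2.94 and 2.86 in Het and 4.16 and 3.72 in Nf1-KO, and Ccl21a was listed at 0. Pdpn, podoplanin, had 0.83 and 0.81 against 1.62 and 1.22, a log2 fold change of 0.36 (limma adjusted p = 0.015), which became 0.061 without Het replicate 1 and 0.051 without Het replicate 2. Mmrn1, a secreted protein of lymphatic vessels, had 0.06 and 0.06 against 0.30 and 0.26, and Reln 0.10 and 0.10 against 0.16 and 0.16. The lymphatic regulator Prox1 had 0.25 and 0.20 against 0.28 and 0.25 and overlapped. Flt4, the most abundant name of the lymphatic list, had 1.7 and 1.69 against 1.8 and 1.83. It overlapped on scaled values and was not called, with a log2 fold change of 0. The part of the lymphatic markers in the Lyve1 result was not tested. The ratio of Csf1r to Cd163 was 0.732 and 0.602 in Het and 1.39 and 1.56 in Nf1-KO.

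Lysosomal and effector genes held the members with the widest gap between groups. Their summed RPKM went from 8.88 to 29.4, a ratio of 3.31, and all 5 had both Nf1-KO libraries higher. Lyz2, the lysozyme of macrophages and neutrophils, had 7.47 and 7.38 RPKM in Het and 24.35 and 24.62 in Nf1-KO, a log2 fold change of 1.51 ± 0.032 (SE, limma adjusted p = 8.5e-07). Lgals3, galectin-3, a secreted lectin of activated macrophages that other cells also make, had 0.90 and 0.70 against 4.09 and 3.61, a log2 fold change of 1.37 ± 0.08 (SE, limma adjusted p = 4.2e-05).

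Reads of Lyz2 may be shared with its near copy Lyz1, so the split between them is uncertain. Lyz1 had 0.89 and 0.86 RPKM in Het and 5.04 and 4.70 in Nf1-KO, and thus also rose. The ratio of Lyz2 to Mrc1 was 7.18 and 7.69 in Het and 25.1 and 20.7 in Nf1-KO, and that of Lgals3 to Mrc1 was 0.865 and 0.729 against 4.22 and 3.03. The remaining 3 genes were under the filter. Gpnmb, a glycoprotein of lipid-laden macrophages and bone cells, had 0.22 and 0.19 against 0.26 and 0.28. Cd14, the coreceptor for bacterial lipopolysaccharide, had 0.33 and 0.22 against 0.47 and 0.41, and Cybb, the catalytic subunit of the phagocyte oxidase, 0.13 and 0.22 against 0.33 and 0.43.

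**Figure D4:**
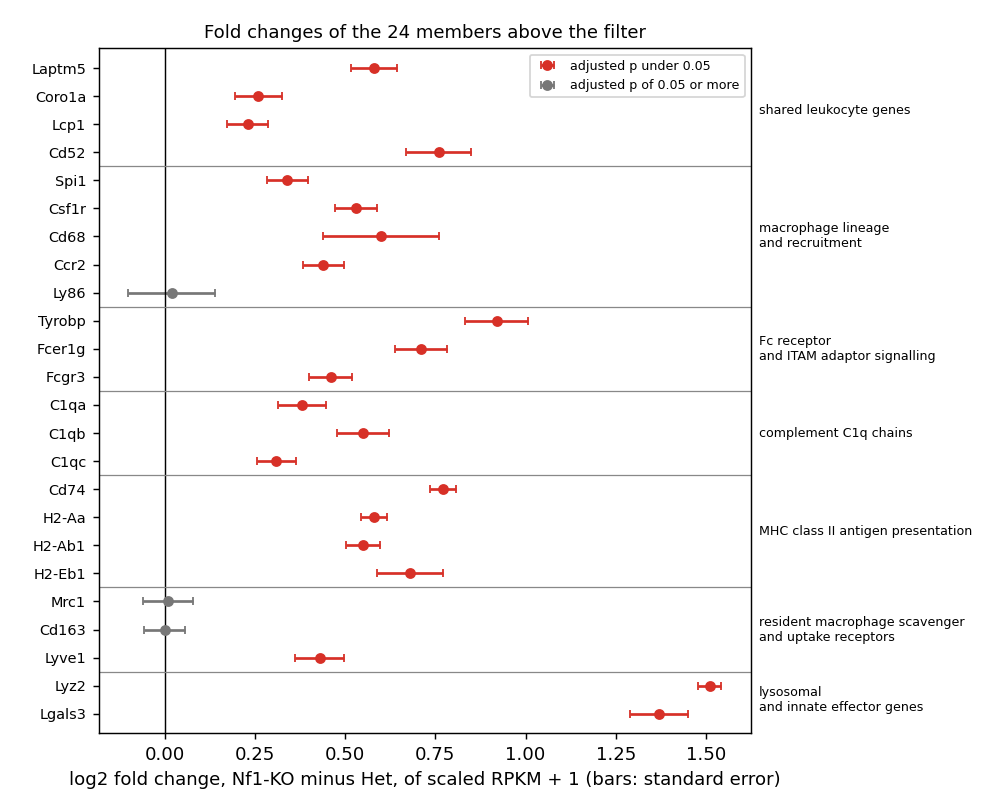
Log2 fold change, Nf1-KO minus Het, of the 24 members above the filter, with bars of 1 standard error, grouped by role. Lyz2 and Lgals3 lie farthest to the right at 1.51 and 1.37, and Ly86, Mrc1 and Cd163 lie at 0.02, 0.01 and 0.

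The cytokine list, which also held enzyme genes such as Nos2, had genes called in both directions. Of 14 names, 5 were tested, and Retnla and Il15 rose while the enzyme gene Nos2 fell. Tgfb1 and Igf1 were not called, each with a log2 fold change of -0.02. Over all genes tested, 24.9% were called higher and 25.4% lower. The median log2 fold change of the 5 was -0.02, against 0 over all genes tested. Retnla, a secreted protein of alternatively activated macrophages and of adipose tissue, had 6.77 and 6.12 RPKM in Het and 17.21 and 16.74 in Nf1-KO, a log2 fold change of 1.19 (limma adjusted p = 1.1e-05). Nos2, the inducible nitric oxide synthase, had 1.92 and 1.86 against 1.03 and 0.95, a log2 fold change of -0.59 (limma adjusted p = 3e-04). Il15, which muscle fibres also make, had 3.76 and 3.61 against 4.67 and 5.78, and its adjusted p of 0.02 became 0.072 without Het replicate 1 and 0.074 without Het replicate 2. The inflammatory cytokines Il1b, Il6 and Tnf had at most 0.02 in any library, and Osm was listed at 0.

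In the authors' deposited table of the same comparison, 35 members were present, and 17 were higher and 0 lower at an adjusted p under 0.05, against 15% and 16.6% of its 13985 genes. Of these 17, 16 were also called from the RPKM values, and Cybb was called in the authors' deposited table alone (log2 fold change 0.98, adjusted p = 0.028). Coro1a, Lcp1, Spi1, C1qa and C1qc were called from the RPKM values but had adjusted p-values of 0.2, 0.052, 0.12, 0.098 and 0.19 in the authors' deposited table. The mean normalized counts there ran from 19.8 to 1460 over the 24 tested members, so the less abundant members rest on few reads.

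**Figure D5:**
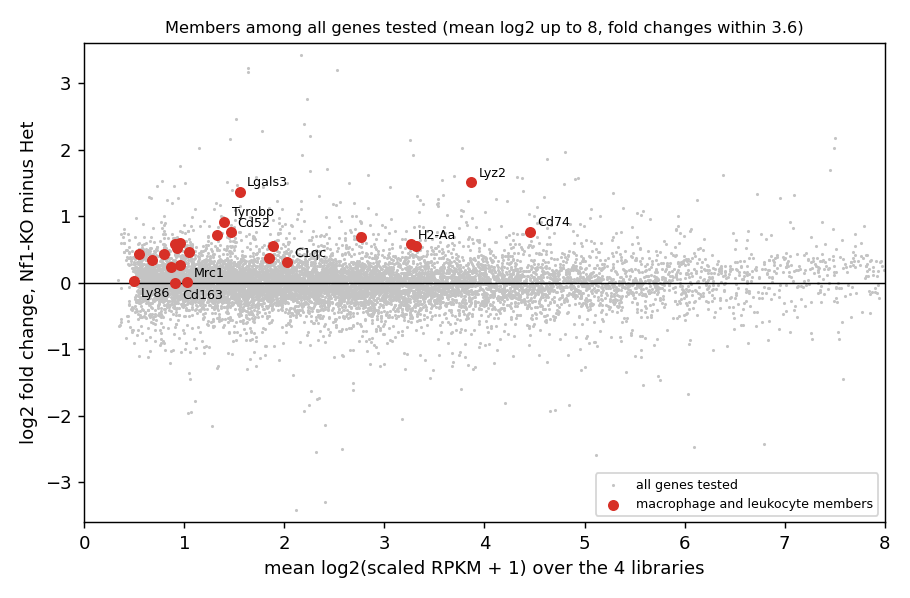
Log2 fold change, Nf1-KO minus Het, against mean log2(scaled RPKM + 1) for the genes tested in grey, within a mean of 8 and fold changes of 3.6, with the 24 tested members in red. The members lie at the low to middle levels and 21 of 24 lie above 0 at an adjusted p under 0.05.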

How the data were processed

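Gene values in RPKM for 2 Het and 2 Nf1-KO libraries were used as deposited. The submitters' processing notes name STAR 2.4.2a, DESeq2 and the mm9 build; the counter and annotation are not given in the sources used here. The unit was read from the values. The log2 fold changes and p-values of the authors come from their deposited table, which also holds mean normalized counts (a signal made by the authors). Counts per library were not used here, so no count model was run.

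RPKM were scaled by the mean log ratio that remained after 30% of ratios and 5% of levels were trimmed at each end, filtered at 0.5 RPKM in at least 2 libraries, and tested on log2(value + 1) with limma 3.58.1 in R 4.3.3, with a mean trend, no replicate block and Benjamini-Hochberg adjustment over 10690 genes. The code was tested on simulated data. With 2 against 2, an exact permutation test cannot go under 0.333, so none was used. Replicate numbers are shared between groups, but same-numbered libraries did not deviate together (r = -0.0179). Of 34682 listed entries, 33 had numeric names and were left out. Promoters came from RefSeq GRCm38.p6 and exon overlaps from GENCODE M21 on GRCm38, and no coordinates were mixed with mm9. Alternatives were no filter, a filter of 1 RPKM in every library, other scalings and pseudocounts, the replicate block, a stricter threshold, and leaving out each library. All members above 0 were named. Of each other list, up to 3 called genes with the largest change and its defining genes at 0 were named, and others are said to have been named after their values were seen or serve as levels of a list. The members and lists were chosen with earlier results of these data known.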

Additional observations from a re-analysis of the deposited data

How the results depend on the processing

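Of 338 values of single members under 15 alternatives, 331 kept their side of the threshold and 7 lost the call. The sign differed in 10, all of members that were not called (Ly86, Mrc1 and Cd163). Of 21 called members, 18 kept the call in every setting that tested them. The exceptions were Coro1a, Lcp1 and Cd68, with Coro1a at an adjusted p of 0.071 and Cd68 at 0.12 without a filter. A filter of 1 RPKM in every library left 8 members tested and 8 called, and 35 genes of the other lists called in place of 58, since fewer genes were tested. Leaving out 1 library gave 18 to 20 members and 44 to 49 genes of the other lists. The fit with the replicate block called 21 members, the same 21 genes, and 58 genes of the other lists, of which 56 were called without it; Nf1 lost its call (0.056). An adjusted p under 0.01 kept 18 members. With a pseudocount of 0.1 the tested members had a median log2 fold change of 0.8, against 0.54 with 1. Of 693 values of other named genes, 29 lost and 2 gained the call, and 6, of genes not called, had the other sign. Members under 0.5 RPKM, 16 by their Het mean, are limited by unknown depth.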
